A study of Mus musculus with 2 samples.

Results

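The mevalonate arm of cholesterol synthesis is described here on 2 one-colour Agilent mouse expression arrays, 1 of total RNA from mouse cells given an agent named S180 and 1 from mouse cells given DMSO, the solvent control. The cells, their genotype, the dose, the time of exposure and the nature of S180 are not named in the labels, and neither group has a replicate. The 8 genes chosen were Acat2, Hmgcs1, Mvk, Pmvk, Mvd, Idi1, Fdps and Ggps1, and every probe carrying one of these names in the scanner files was taken. Of the 8 genes, 7 had such a probe, with 15 probes among the 56605 non-control probes and 37074 gene names of the array. All 15 probes were well above background on both arrays by the scanner software's flag, and none was saturated, so that no measurement was lost to a filter on dim probes. The pathway was selected on its measured values: its genes had already been seen to be higher in S180 on these same arrays. Their differences are therefore a description, and no p-value is given.

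This arm builds the isoprenoid units from which cells make cholesterol, dolichol, ubiquinone and the lipid anchors of small GTPases. Acetyl-CoA is condensed by a cytosolic thiolase and by HMG-CoA synthase to HMG-CoA, the precursor of mevalonate. The step from HMG-CoA to mevalonate has no gene among those chosen here. Mevalonate is phosphorylated in consecutive steps, decarboxylated to isopentenyl diphosphate, isomerised, and joined into farnesyl and geranylgeranyl diphosphate. Many of these genes are known targets of SREBP2, a membrane-bound transcription factor that is released when sterols in the endoplasmic reticulum are low and that acts on promoters together with NF-Y and Sp1.

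The stretches before the start of transcription are shown for the 3 genes that were at least 2-fold higher in S180 (Hmgcs1, Mvd and Idi1) and for the gene that differed least (Ggps1). Each is the 250 bases upstream of the annotated start, in the direction of the gene, from the RefSeq promoter table of build GRCm38.p6. Capitals mark matches to CACNCCAC, a form of the sterol regulatory element, and to CCAAT, the core bound by NF-Y, on either strand.
Hmgcs1, chr13:119690101-119690350, strand +: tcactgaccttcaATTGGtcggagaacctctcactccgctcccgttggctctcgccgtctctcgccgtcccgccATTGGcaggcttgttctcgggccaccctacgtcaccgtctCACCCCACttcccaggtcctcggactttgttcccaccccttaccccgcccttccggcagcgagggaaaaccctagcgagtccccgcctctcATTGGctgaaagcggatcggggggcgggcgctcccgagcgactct
Mvd, chr8:122443423-122443672, strand -: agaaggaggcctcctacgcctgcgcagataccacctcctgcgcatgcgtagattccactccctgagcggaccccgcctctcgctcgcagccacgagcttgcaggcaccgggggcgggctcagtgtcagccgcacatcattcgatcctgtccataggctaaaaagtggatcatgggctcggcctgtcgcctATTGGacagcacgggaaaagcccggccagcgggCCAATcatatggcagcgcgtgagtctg
Idi1, chr13:8885356-8885605, strand +: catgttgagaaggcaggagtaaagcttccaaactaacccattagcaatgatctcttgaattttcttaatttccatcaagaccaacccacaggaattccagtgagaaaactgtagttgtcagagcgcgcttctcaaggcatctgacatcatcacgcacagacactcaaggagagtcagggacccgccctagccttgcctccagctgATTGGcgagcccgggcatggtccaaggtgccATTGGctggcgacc
Ggps1, chr13:14063489-14063738, strand -: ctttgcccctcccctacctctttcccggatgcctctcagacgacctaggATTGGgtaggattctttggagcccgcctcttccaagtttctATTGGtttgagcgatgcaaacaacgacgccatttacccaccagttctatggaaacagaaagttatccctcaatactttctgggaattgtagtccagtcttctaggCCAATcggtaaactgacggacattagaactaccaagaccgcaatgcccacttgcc

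The table held a window for 7 of the 8 genes, with none for Fdps and a pair for Pmvk. A match to CACNCCAC was found in 2 of the 7, Hmgcs1 (136 to 129 bases before the start) and Acat2, whose window held it 2 times, whereas 5.29% of all 32851 windows of this length held one. CCAAT was found in 6 of the 7, all except Acat2, and in 33.8% of all windows. Hmgcs1 held it 3 times, Mvd 2 times, Idi1 2 times, Mvk 5 times and Ggps1 3 times. GGGCGG, the GC box bound by Sp1, was found in 5 of the 7 and in 32.7% of all windows, and ACGTG, the core of the element bound by hypoxia-inducible factors, in 0 of the 7 and in 16.6% of all windows. No matches of different motifs overlapped in these windows. The CCAAT matches did not separate Ggps1 from the genes that were higher, since Ggps1 held as many as Hmgcs1. These counts describe letters in a short window and not binding.

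In S180, 6 of the 7 measured genes were higher than in DMSO by 1.48-fold to 2.56-fold, and Ggps1, the enzyme at the end of the arm, differed by 1.08-fold and turned negative without scaling and on a scale set by spike-in transcripts. Mvd, Hmgcs1 and Idi1 were at least 2-fold higher, while Pmvk, Fdps and Mvk lay near 1.5-fold; without scaling and on the spike-in scale Mvd alone was 2-fold higher. The median difference of the 7 genes was 0.62 on the log2 scale (0.004 over all 20781 measured genes). At least 2-fold higher were 3 of the 7, against 0.582% of all measured genes and 0.635% of the 6927 bright genes, to which 6 of the 7 belonged when genes were divided into 3 equal groups (bright, middle and dim) by their mean over both arrays. Since the genes were selected on this contrast, nothing is read from these shares. At 1.5-fold the count was 5 of the 7, against 3.08% of all measured genes and 1.66% of the bright genes. No member was 2-fold lower, as 0.168% of all genes were. Here a gene is represented by its brightest probe that was well above background on both arrays, and a difference is S180 minus DMSO after each array's 75th percentile of log2 signal was subtracted. The error given with it is the SD of a difference between single spots, from probes printed 10 times on each array. It was 0.042 in the bright group (262 such probes) and 0.0727 in the middle group (6 probes), and it covers the array alone, not the culture or the labelling.

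**Figure D1:**
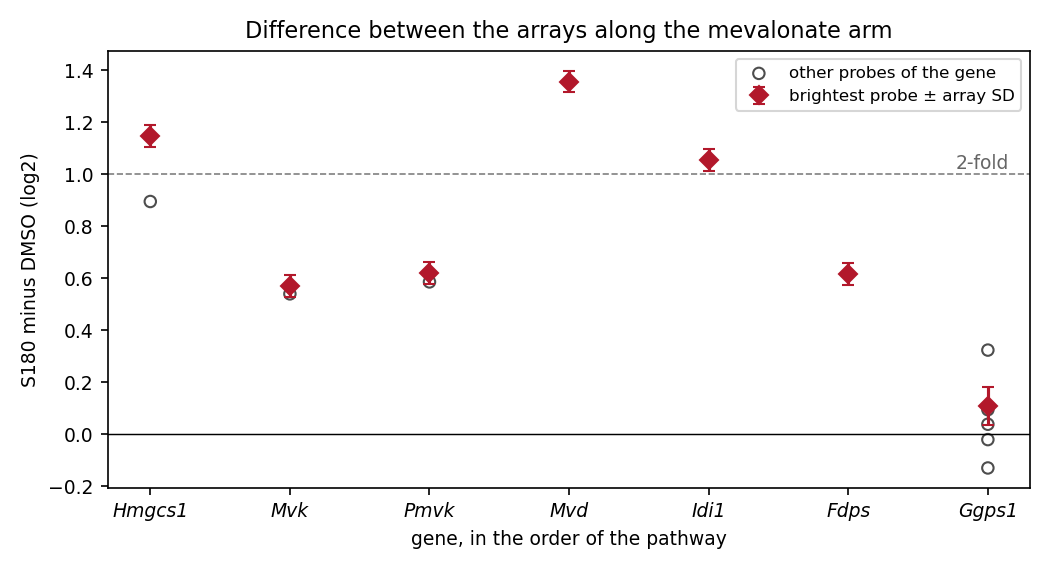
Difference between the S180 and DMSO arrays (log2, vertical axis) for each measured gene, in the order of the pathway from left to right. Filled diamonds are the brightest probe with bars of 1 array SD, open circles are other probes of the gene, the solid line marks no difference and the dashed line 2-fold; Mvd is highest at 1.36 and Ggps1 lowest at 0.11.

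The first step has no probe of its own name. Acat2 encodes the cytosolic thiolase that joins acetyl-CoA units, and in the mouse it lies beside Acat3, which encodes a closely related thiolase. One probe lists the RefSeq transcripts of both genes and is named Acat3 in the files, and another probe named Acat3 lists the transcript of Acat3 without that of Acat2. The first 30 of the 60 bases of each are shown, because the readout of this step depends on which transcripts they bind.
Acat3 probe listing both transcripts: ttgctgtactttaatgtgagacacccaagg
Acat3 probe listing the Acat3 transcript: tggtccttggaggatgttgacctgtttgaa

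The shared probe had a processed signal of 991.2 in S180 and 583.9 in DMSO, a 2.06-fold difference after scaling (log2 1.04). The other probe had 741.2 in S180 and 530.4 in DMSO, or 1.7-fold (log2 0.76). Both were higher in S180, by more than the array SD of 0.0727 for their signal range. How the signal of the shared probe divides between Acat2 and Acat3 cannot be told apart on these arrays, so no value is given for Acat2 itself.

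Hmgcs1 encodes the cytosolic HMG-CoA synthase, which adds a further acetyl group to make HMG-CoA. Its brighter probe, against the RefSeq transcript, read 40468 in S180 and 22185 in DMSO. That was 2.22-fold higher in S180 (log2 1.15, array SD 0.042), rank 76 from the top among all measured genes. Its dimmer probe, against a testis cDNA clone, read 198.1 in S180 and 129.5 in DMSO, 1.86-fold higher (log2 0.89). In the dim group the array SD was 0.268. Both probes were higher in S180; the files place them on an unassigned part of chromosome 13 of build mm9, the brighter one at 114793 to 114852 and the dimmer one at 121437 to 121496, on the minus strand.

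Mvk encodes mevalonate kinase, which adds the first phosphate to mevalonate. Its brighter probe, on chromosome 5 from 114910540 to 114910599 (mm9), read 9207 in S180 and 7539 in DMSO, 1.48-fold higher (log2 0.57). The other, at 114902394 to 114902453, read 446.7 in S180 and 373.4 in DMSO, 1.45-fold higher (log2 0.54). The pair lay within the array SD of each other, although their signals differ.

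Pmvk encodes phosphomevalonate kinase, which adds the next phosphate. Its probes lie side by side on chromosome 3, from 89272867 to 89272926 and from 89272739 to 89272798 (mm9). The brighter read 12630 in S180 and 9981 in DMSO, 1.54-fold higher (log2 0.62), and the other read 4709 in S180 and 3811 in DMSO, 1.5-fold higher (log2 0.59). Again the probes of the gene agreed within the array SD.

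Mvd encodes mevalonate diphosphate decarboxylase, which turns the doubly phosphorylated mevalonate into isopentenyl diphosphate. It was measured by a single probe, on chromosome 8 from 124957750 to 124957809 (mm9, minus strand). The signal was 4894 in S180 and 2323 in DMSO, and the scaled level was 2.99 in S180 and 1.64 in DMSO (log2 relative to the 75th percentile). The resulting 2.56-fold difference (log2 1.36, array SD 0.042) was the largest of the 7 genes and rank 49 of 20781. It exceeded that of Hmgcs1 by 0.21 (log2), more than the array SD of such a gap (0.0594), whereas the pair of Hmgcs1 probes gave 0.895 and 1.15.

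Idi1 encodes the isomerase that converts isopentenyl diphosphate into the more reactive dimethylallyl diphosphate. Its single probe, on chromosome 13 from 8891524 to 8891583 (mm9), read 18198 in S180 and 10652 in DMSO. Idi1 was 2.08-fold higher in S180 (log2 1.05), rank 102. The gap from Hmgcs1 to Idi1 was 0.09, and that from Idi1 to Pmvk, the next lower gene, 0.43, against an array SD of 0.0594 for each.

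Fdps encodes farnesyl diphosphate synthase, whose product stands at the branch between sterols and the other isoprenoids. Its single probe, on chromosome 3 from 88897549 to 88897608 (mm9, minus strand), read 50105 in S180 and 39767 in DMSO, 1.53-fold higher (log2 0.61). Fdps, Pmvk and Mvk could not be ordered: the gap from Pmvk to Fdps was 0.006 and that from Fdps to Mvk 0.045, both below the array SD of 0.0594.

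Ggps1 encodes geranylgeranyl diphosphate synthase, which extends farnesyl diphosphate for protein anchors and lies on the branch that does not lead to sterols. Its 6 probes gave log2 differences between -0.13 and 0.32. The brightest, on chromosome 13 from 14144710 to 14144769 (mm9), read 2080 in S180 and 2342 in DMSO, 1.08-fold higher after scaling (log2 0.11, array SD 0.0727). The highest value, 0.32, came from the dimmest probe, designed against a pancreas cDNA clone, which read 296.2 in S180 and 287.5 in DMSO and lies at 14154796 to 14154855, away from the other 5. The lowest, -0.13, came from a probe against a predicted transcript with 686.2 in S180 and 912.1 in DMSO. The other 3 lay at -0.02, 0.04 and 0.10. All 6 lay below the lowest probe of any other member (0.54). The gap between Mvd and Ggps1 was 1.25 (log2), against an array SD of 0.084 for it.

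Over all 15 probes, 13 were higher in S180, 2 were lower, both of Ggps1, and 3 (20%) were at least 2-fold higher, against 0.63% of all 32679 measured probes. The 9 probes of the other 6 genes lay between 0.54 and 1.36. Among 7387 genes with 2 or more measured probes, the differences of the 2 brightest probes had a median gap of 0.119 (log2), and 90% of the gaps were below 0.395. The paired probes of Hmgcs1, Mvk and Pmvk lay within that range.

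**Figure D2:**
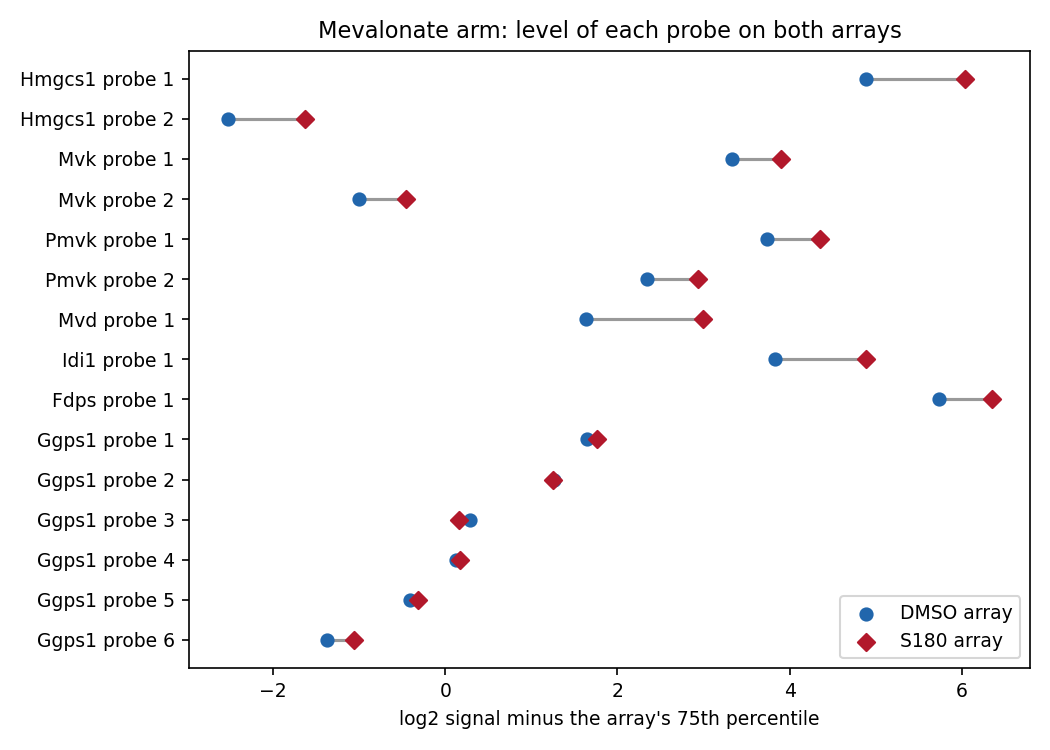
Level of each of the 15 probes on the DMSO array (circles) and the S180 array (diamonds), as log2 signal minus the array's 75th percentile, with probes of a gene ordered from bright to dim. Levels are to be compared within a probe; the S180 diamond lies to the right of the DMSO circle for every probe of Hmgcs1, Mvk, Pmvk, Mvd, Idi1 and Fdps, and close to it for Ggps1, whose brightest probe has 1.76 in S180 and 1.65 in DMSO.

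The size of these differences depended on the scaling between the arrays, while Mvd was highest and Ggps1 lowest of the 7 under every setting run. Gene signals were brighter on the DMSO array: without scaling the median gene lay at -0.28 (log2). The spike-in transcripts were not: their mean difference without scaling was 0.07, slightly brighter on the S180 array. Scaled on 8 Agilent spike-in transcripts, which carry no RNA of the cells, the median gene lay at -0.35. On that spike-in scale Mvd was 1.001, Hmgcs1 0.79, Idi1 0.70, Pmvk 0.27, Fdps 0.26, Mvk 0.21 and Ggps1 -0.25, so that Mvd alone reached 2-fold and Ggps1 lay below 0. Mvd, Hmgcs1, Idi1, Pmvk, Fdps and Mvk were above 0 in all 12 alternatives that kept the threshold, and Mvd reached 2-fold in all 12. These alternatives were not independent. Dropping the filter on dim probes and keeping the brightest 50% of genes could not change a member's value. The deposited table nearly repeated quantile normalization. Relative to the median gene, the reported differences were 1.35 for Mvd and 0.11 for Ggps1.

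**Figure D3:**
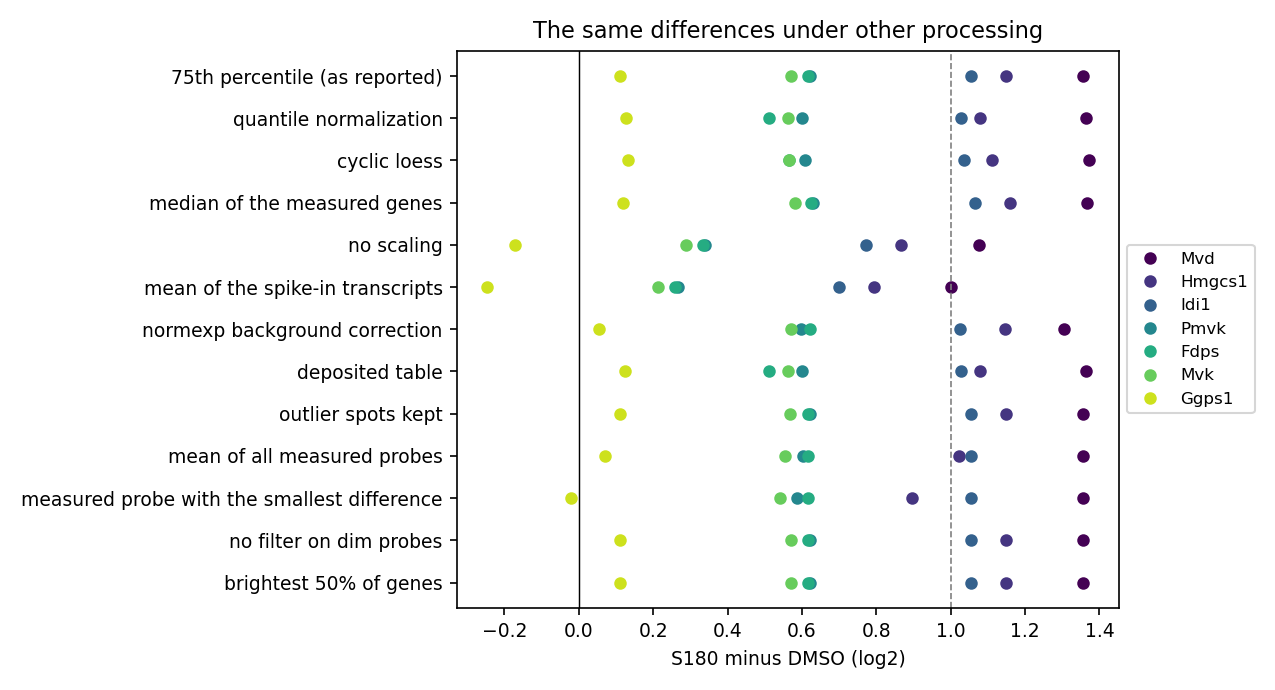
Differences between S180 and DMSO (log2, horizontal axis) for the 7 measured genes, with 1 row for the reported processing and 1 for each alternative. The dashed line marks 2-fold; the points shift to the left without scaling and on the spike-in scale, where Ggps1 falls below 0, and Mvd stays rightmost in every row.

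The genes that follow the arm on the way to cholesterol were taken as a list of 13, from squalene synthase (Fdft1) to the last reductases. All 13 were measured and lay above the median gene, as 50% of all genes do by definition. The median difference was 0.98, and 5 of the 13 were at least 2-fold higher (0.582% of all genes). That count was 2 with quantile normalization and 2 with the authors' deposited values, and 0 without scaling and on the spike-in scale. With the reported scaling the 5 were led by Hsd17b7 at 2.14-fold and Msmo1 at 2.13-fold, which act in demethylation at the sterol ring. The others were Sqle, the squalene epoxidase, at 2.07-fold, Sc5d, a sterol desaturase, at 2.05-fold, and Cyp51, the lanosterol demethylase, at 2.03-fold. Dhcr7 at 1.97-fold and Lss at 1.98-fold lay just short of 2-fold. The smallest differences belonged to Lbr (1.15-fold), Ebp (1.16-fold) and Tm7sf2 (1.24-fold). No test of the difference between the arms was possible with 1 array per group. Mvd lay above every gene of the sterol list, whose highest value was 1.097, and Ggps1 below every gene of it, whose lowest was 0.20. Pmvk, Fdps and Mvk lay between the 3 smallest and the other 10 genes of that list.

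Upstream of the arm, the genes that supply cytosolic acetyl-CoA were all above the median gene, with a median difference of 0.34 over 3 genes. Acly, the ATP citrate lyase, was 1.51-fold higher, Acss2, which activates acetate, 1.27-fold, and Slc25a1, the mitochondrial citrate carrier, 1.21-fold. None reached 2-fold.

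Sister enzymes of the members act in other compartments or tissues. Acat1, the mitochondrial thiolase, read 4235 in S180 and 5417 in DMSO (log2 -0.07). Idi2, another isomerase, was not well above background on any of its 3 probes. Acat3 is given above with its shared probe.

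Of 7 genes of the SREBP machinery 4 lay above the median gene, the median difference was 0.03, and none was 2-fold apart. Insig1, which retains the SREBP escort in the endoplasmic reticulum and is itself a known SREBP target, was 1.57-fold higher (log2 0.66). Srebf2, which encodes SREBP2, was 1.48-fold higher (0.56). The lowest values were those of Mbtps2, a protease that releases SREBP, at -0.16 and Scap, the escort protein, at -0.14.

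Of 30 genes among the downstream users of the isoprenoids, 0 were 1.5-fold apart in either direction with the reported scaling. Of all measured genes, 3.08% were 1.5-fold higher and 1.71% lower, so nothing is read from a count of 0 among 30. Without scaling 2 were 1.5-fold lower, and on the spike-in scale 3 were: Chml (log2 -0.75), Trit1 (-0.66) and Pdss2 (-0.64). The median gene itself lay at -0.28 without scaling and at -0.35 on the spike-in scale. The counts of downstream users were added after the data were seen. Of 11 genes of protein prenylation 5 lay above the median gene, with a median of -0.05. Fntb, a subunit of farnesyltransferase, was highest at 0.15, followed by Ptar1 at 0.04 (log2), and Chml (-0.39) and Chm (-0.23), the Rab escort proteins, were lowest. The 11 genes of dolichol, ubiquinone and other isoprenoid uses had a median of -0.16. Dhdds, a subunit of the dolichol-forming transferase, lay at -0.01, and Trit1, a tRNA modifier, at -0.30 and Pdss2, of ubiquinone tail synthesis, at -0.28 were lowest. Among 8 prenylated small GTPases, 7 lay above the median gene with a median of 0.08. Rhob was highest at 1.3-fold (log2 0.38), followed by Rac1 (0.19), and Rap1a (-0.17) and Rhoa (0.05) were lowest.

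**Figure D4:**
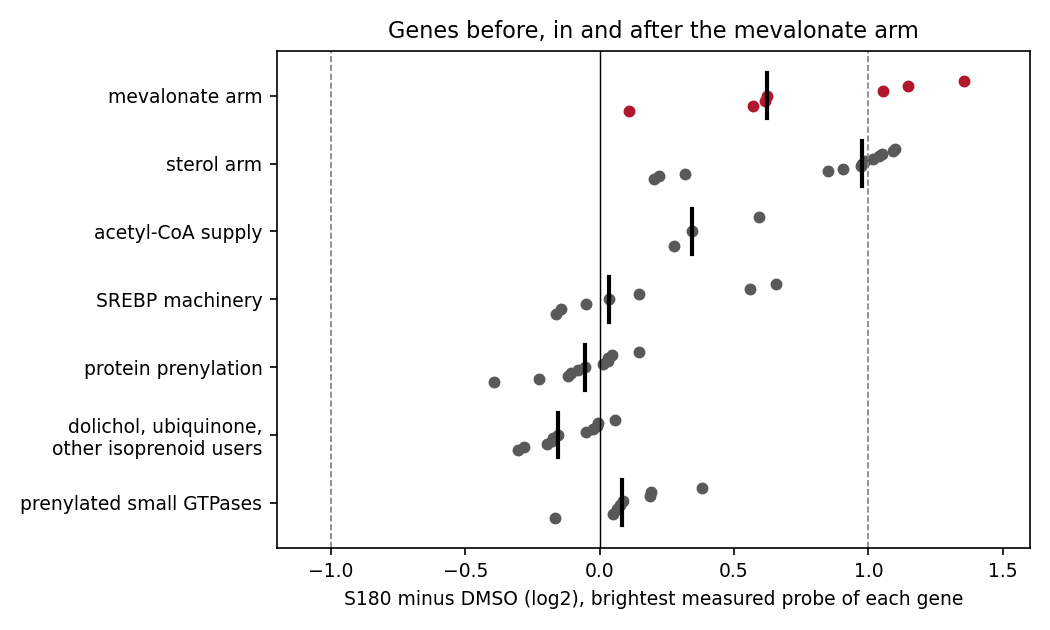
Differences between S180 and DMSO (log2, horizontal axis) for the measured genes of each list, 1 point per gene, with the list's median as a black bar and dashed lines at 2-fold in each direction. The mevalonate arm (red) has a median of 0.62 and the sterol arm 0.98, whereas the lists of isoprenoid users lie around 0, with medians of -0.05 and -0.16.

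On the arrays, 61.91% of 59305 non-control spots were well above background in S180 and 60.57% in DMSO, none was saturated, the median processed signal was 45.44 in S180 and 52.92 in DMSO, and both arrays carry the same scan time in their headers. As the labels name no cell type, markers of other cell types were read beside the results. All 5 melanocyte markers were measured (summed signal 617086 in S180 and 660214 in DMSO, differences from -0.01 to 0.26), as were all 4 leukocyte markers (6379 and 6956, -0.13 to 0.26). Of the hepatocyte markers 0 of 4 were measured, with a summed signal of 33.96 in S180 and 22.12 in DMSO. All 4 fibroblast markers were measured (1385 in S180 and 2386 in DMSO) and lay below the median gene, led by Col1a2 at 1.77-fold lower. Summed signals are before scaling and cover every marker of a list, measured or not. Of the epithelial markers 2 of 4 were measured (49.07 in S180 and 89.53 in DMSO over all 4). Of the endothelial markers 1 of 4 was measured (89.43 in S180 and 122.7 in DMSO over all 4). The part of these differences in the values of the mevalonate genes was not tested. On the spike-in scale Lbr, Ebp, Tm7sf2, Acss2, Slc25a1 and every GTPase of the list except Rhob lay below 0. Fewer cells of a type and less RNA per cell cannot be told apart in such RNA.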

How the data were processed

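Total RNA of mouse cells was labelled with Cy3 and hybridised to 1 array per group, per the labels' protocols. The deposited scanner files hold spot intensities from the scanner software Agilent Feature Extraction 10.7.1.1 (also in the submitters' processing notes), background-subtracted and detrended but not normalized between arrays, per the file headers. The deposited table of both arrays holds log2 values, with no normalization stated in the labels. It lay within 0.05 of quantile-normalised log2 signals for 99.99% of 56602 probes, each column following its own array, so that scale and direction were settled, and its columns had a median of 5.28.

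Control spots and outlier-flagged spots (120 in S180, 195 in DMSO) were left out, log2 processed signals averaged per probe, and each array's 75th percentile subtracted. Genes carry the names in the files. The step from probes to genes and the counts past a fold were run on simulated data with planted differences well past 2-fold. That run checks the code and does not cover calls close to 2-fold. R 4.3.3 with limma 3.58.1 and Python 3.11.15 were used. With 1 array per group no test was made and their number limits the precision. All members were described, and from each list the genes past 2-fold plus the 2 highest and 2 lowest; Dhcr7, Lss and Tm7sf2 were added after their values were seen. Some list members are left out by name. Members and lists were chosen with earlier results of these data known. Probe positions are those of build mm9 in the files; promoters come from RefSeq on GRCm38.p6 and were not converted. As alternatives, arrays were scaled by quantiles, cyclic loess, the median gene or not at all, and further settings used spike-in transcripts, normexp (offset 50), the deposited table, other probe rules, other filters, and thresholds of 1.5-fold and 3-fold.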

Additional observations from a re-analysis of the deposited data

How the results depend on the processing

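Of the 7 members measured, the count at least 2-fold higher was 3 as reported; it was 1 without scaling and 1 on the spike-in scale, 5 at a 1.5-fold threshold and 0 at 3-fold. Their median difference of 0.62 (log2) became 0.34 without scaling and 0.27 on the spike-in scale. The count of the sterol arm was 5; it was 2 both with quantile normalization and with the authors' deposited values, 0 without scaling, 0 on the spike-in scale, 10 at 1.5-fold and 0 at 3-fold. Its median of 0.98 became 0.695 without scaling, 0.62 on the spike-in scale and 0.93 with the probe of smallest difference. No median changed sign. Among single genes, Ggps1 ranged from -0.25 to 0.13 over 12 alternatives and was above 0 in 9, Hmgcs1 reached 2-fold in 9 of 12, Idi1 in 10 and Mvd in all 12. The 12 include no filter on dim probes and the brightest 50% of genes, which could not change these values. They also include the deposited table, which nearly repeated quantile normalization. Leaving out the scaling or setting it on the spike-in transcripts changes 1 value per array and shifts all genes alike, whereas quantile normalization and cyclic loess do not; the cause of their shifts was not tested. Over all genes, 121 were 2-fold higher and 35 lower; on the spike-in scale these were 49 and 257, without scaling 62 and 173, with normexp 74 and 7, and with no filter on dim probes 1778 and 812. No paired analysis was possible because each group has 1 array. Signal over background limits the dim probes most, with an array SD of 0.268 (log2) against 0.042 for bright ones.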

Other observations

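RefSeq places a gene on the opposite strand close to the start of 2 members. The start of Mmab, which encodes an adenosyltransferase of vitamin B12 metabolism, lies 242 bases from that of Mvk on GRCm38.p6, a gene pair known for a shared promoter. Mmab read 395.6 in S180 and 424.6 in DMSO on the brightest of its 3 measured probes, a log2 difference of 0.18 after scaling, against 0.57 for Mvk. The start of Arid4b, which encodes a chromatin-binding protein, lies 296 bases from that of Ggps1. Arid4b read 1092 in S180 and 1365 in DMSO, a log2 difference of -0.04, against 0.11 for Ggps1. These neighbours were looked up after the members' values were seen.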
